A study of Mus musculus with 20 samples.

Results

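The effect of a high fat diet (HFD) against a normal diet (ND), averaged over both lengths of feeding, was measured in hair follicle stem cells in telogen, the resting phase of the hair cycle. It rests on 12 of the 20 arrays of the study, chosen by their labels: 6 HFD arrays (3 after 3 months and 3 after 4 days of diet) and 6 ND arrays (3 and 3 at the same times). All mice were male; those of the 3-month groups were 5 months old and those of the 4-day groups 2 months old, so duration, age and array slide change together. The other arrays come from an aged group and from anagen, the growth phase, with 1 anagen array per condition. Cell isolation, strain and diet composition are not given in the sources used here. Nothing in the labels ties a replicate to an animal of its own, and the p-values therefore reflect how these samples vary, which may be technical.

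Hair follicle stem cells sit in the bulge of the follicle, stay quiescent through telogen, and rebuild the lower follicle when Wnt signalling rises and BMP signalling falls. A high fat diet supplies fatty acids that cells burn in mitochondria, store in lipid droplets or answer with PPAR target genes, and obesity is known to bring interleukin-1 and NF-kB signalling in several tissues. Stem cells of the bulge can also leave their fate and turn on genes of the epidermis or the sebaceous gland. A gene that differs the same way after 4 days and after 3 months would be shifted both early and late, whereas a gene that differs at 1 time only would be diluted in the average.

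Each value is a scaled signal: the spot intensity of an Agilent probe divided by the 75th percentile of its array, so that it is relative to the other probes of that array and not an amount per cell. Because these are bulk samples, fewer cells of a type and less RNA per cell cannot be told apart. Markers of the labelled cells were looked at first: the 22 bulge marker genes, Cd34, Krt15, Lgr5, Sox9 and Lhx2 among them, were all tested and all well above background (the scanner software's flag) on all 12 arrays, as were the 10 markers of basal keratinocytes. So were 14089 of all 18473 genes tested. Of other markers tested, all 9 of the upper follicle, 8 of 10 of T cells and 2 of 7 of mast cells were. Detection alone therefore does not check the label. Of 59305 spots outside the controls, HFD arrays had fewer well above background: 64.3% to 74.4% on HFD 3-month arrays against 73.7% to 77.6% on ND 3-month arrays, and 68.8% to 71.5% on HFD 4-day arrays against 77.1% to 83.5% on ND 4-day arrays. The mean was 69.5% ± 3.57 in HFD and 77.6% ± 3.44 in ND (SD, n = 6 each), a difference of -8.09 points (exact two-sided permutation test within duration, p = 0.01, where the smallest possible p is 0.005). On both slides the ND telogen arrays lay in row 1 and the HFD telogen arrays in row 2: the effects of diet and of row cannot be told apart. The single anagen arrays had the opposite rows, HFD in row 1 and ND in row 2, but each pair lay on different slides. There the shares were 70.3% in HFD against 60.7% in ND at 3 months and 70.0% in HFD against 71.1% in ND at 4 days. HFD 3-month replicate 3 and ND 4-day replicate 2 stood apart, at -101.4 and -97.7 on the second principal component, where the other 10 arrays lay between -1.66 and 38.3.

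The first question was which genes differ with diet when both durations are averaged, in a limma fit with duration as a factor over the 18473 genes that passed the filter on dim probes. No gene passed an adjusted p of 0.05 (0% called; limma, Benjamini-Hochberg), and at an unadjusted p below 0.05 there were 974 genes (5.27%), 379 higher (2.05%) and 595 lower (3.22%) in HFD, against 924 at 5% of the genes. The split depended on the scaling: it was 494 higher and 427 lower with normexp background correction, and 213 higher and 1107 lower with median scaling, which moved the median of all genes to -0.15. The gene with the smallest adjusted p, 0.144, was Coq4, which belongs to the complex that makes coenzyme Q, the electron carrier of the respiratory chain. Over all genes the median log2 difference was -0.04, 44.9% of genes were above 0, and the median size of a difference was 0.24, against a median 95% interval of ± 0.76, and precision is limited by the number of arrays. Fitted separately, 3 months gave 0 genes (848 at an unadjusted p below 0.05) and 4 days gave 2 genes past the threshold (0.0108% called).

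The second question was whether the same genes move at 4 days and at 3 months. Over the 18473 genes, which are not independent replicates, the log2 differences at 3 months and at 4 days had a Pearson r of -0.00854 and a Spearman rho of 0.0223, and 51.8% of genes had the same sign at both. The durations share no array. Among the 14089 genes well above background on all 12 arrays the Pearson r was 0.0154. Genes were then counted whose 3 HFD arrays lay all above or all below the 3 ND arrays at both durations. There were 99 such genes with the same direction at both durations (0.536%): 33 higher in HFD at both (0.179% of genes tested) and 66 lower at both (0.357%). Another 66 lay without overlap in opposite directions (0.357%). At 3 months alone 9.71% and at 4 days alone 9.39% of genes did not overlap. When 3 arrays are set against 3, shares of about this size arise with no diet difference. The counts at both durations are therefore given as a description, and whether they exceed that level was not tested.

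**Figure D1:**
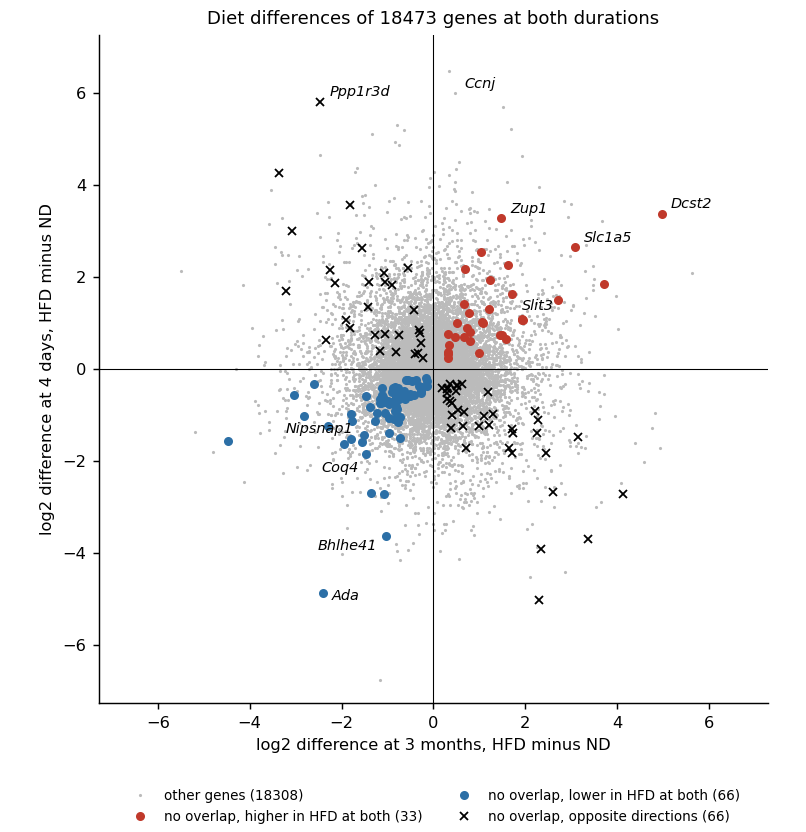
Log2 difference between HFD and ND at 3 months (horizontal) against that at 4 days (vertical) for each of 18473 genes; red and blue points are the 33 and 66 genes whose HFD and ND arrays did not overlap at either duration in the same direction, and crosses the 66 in opposite directions. The cloud has no slope (Pearson r -0.00854), and the marked genes fill all 4 quadrants.

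The surplus of lower over higher genes lay mostly among the dimmest probes. Of the 66 genes lower in HFD at both durations, 33 were among the 4619 genes with the lowest mean signal, against 8 of the 33 higher genes. The median log2 difference was -0.11 in those genes, 0.02 and 0.00 in the next bins of 4618 genes and -0.05 in the bin with the highest signal. The filter let 25 of the 66 lower genes in through ND arrays only (12% of all genes passed this way), and 2 of the 33 higher genes through HFD arrays only (0.747% of all genes), so these genes had to differ in detection. Well above background on all 12 arrays were 28 of the 33 higher and 32 of the 66 lower genes. Fewer spots were detected on HFD arrays, and the part of this in the lower genes was not tested.

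**Figure D2:**
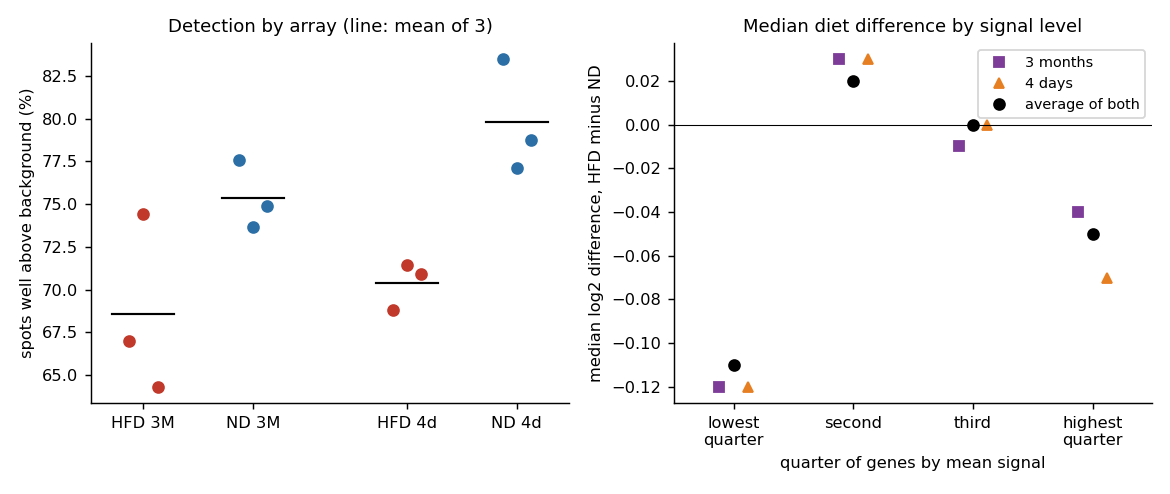
Left, the percentage of spots well above background on each array (points; lines are means of 3), with HFD lower than ND on average at both durations and no overlap at 4 days. Right, the median log2 difference of HFD minus ND for genes in 4 bins of mean signal, at 3 months, at 4 days and averaged, lowest in the dimmest bin at -0.12, -0.12 and -0.11.

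The leading genes were chosen by small p among genes without overlap at either duration, in the same direction at both. Their lack of overlap within a duration is therefore given by the choice, and their sizes, intervals and p-values carry it too. Of the 15 leading genes lower in HFD at both durations, Coq4, Chchd5 and Nipsnap1 encode mitochondrial proteins. Coq4 had scaled signals of 0.276, 0.332 and 0.394 on HFD 3-month arrays, against 1.072, 0.799 and 0.87 on ND 3-month arrays. On HFD 4-day arrays it had 0.344, 0.202 and 0.265, against 0.867, 0.764 and 1.338 on ND 4-day arrays. Every HFD array lay below every ND array, across durations as well as within them. The average log2 difference was -1.66 ± 0.21 (SE, 95% interval -2.12 to -1.19, n = 6 each), with -1.46 at 3 months and -1.86 at 4 days, and the limma adjusted p of 0.144 ranged from 0.062 to 0.979 over 27 other settings of the processing. On the single anagen arrays Coq4 was also lower in HFD, by differences of -1.02 at 3 months and -1.59 at 4 days.

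Chchd5, a small protein of the mitochondrial intermembrane space, had 7.998, 3.154 and 5 on HFD 3-month arrays against 9.506, 10.441 and 9.65 on ND 3-month arrays. At 4 days it had 5.001, 5.931 and 4.619 on HFD arrays against 8.824, 9.281 and 15.319 on ND arrays, with an average difference of -1.02 ± 0.24 (limma adjusted p 0.829). All 6 HFD arrays again lay below all 6 ND arrays. Nipsnap1, a mitochondrial matrix protein that marks damaged mitochondria for removal, had 0.589, 1.097 and 1.551 on HFD 3-month arrays against 3.67, 2.355 and 2.904 on ND 3-month arrays. At 4 days Nipsnap1 had 0.269, 1.569 and 1.167 on HFD arrays against 2.372, 2.01 and 2.787 on ND arrays, an average difference of -1.57 ± 0.41 (limma adjusted p 0.829). Its lowest value was HFD 4-day replicate 1, and the diets did not overlap. Aasdh, an enzyme of the acyl-CoA synthetase family, differed by -1.48 ± 0.38, and its other tested probes by -0.86 and -1.11.

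A further 5 genes of mitochondrial proteins were among the 66, chosen here after their values were seen and therefore given as a description. They are the inner-membrane organiser Chchd3 (-0.64 ± 0.17), the mitochondrial fatty acid synthesis enzyme Mecr (-0.86 ± 0.27), the mitochondrial DNA-binding factor Tfam (-0.70 ± 0.27), the import receptor Tomm22 (-0.37 ± 0.16) and the cytochrome oxidase subunit Cox7a2 (-0.36 ± 0.17). Tfam had 1.573, 1.44 and 0.676 on HFD 3-month arrays against 3.105, 1.768 and 1.829 on ND 3-month arrays, and 1.616, 0.975 and 1.485 on HFD 4-day arrays against 2.264, 1.689 and 1.682 on ND 4-day arrays. Its diets did not overlap, although the gap at 4 days was narrow. The other probes of Mecr (-0.56, -0.68 and -1.0) and Tfam (-0.72) ran the same way, and those of Chchd3 (-0.07) and Tomm22 (0.05) lay near 0. On the anagen arrays 2 of the 8 mitochondrial genes were lower in HFD at 3 months and 4 of the 8 at 4 days. Mitochondrial genes were not counted over all genes tested or among the higher genes, so there is no share to set the 8 against. The list of oxidative phosphorylation genes, the subunits of the respiratory chain and ATP synthase, holds Cox7a2 and was drawn up apart from this choice: 0 of 20 tested members passed the test, 15 were below 0 and 5 above, and the median was -0.10 (-0.04 at 3 months, -0.14 at 4 days), against -0.05 for the bin of genes with the highest signal. Read against all genes, the list depended on the scaling: with quantile normalization its median was -0.02 where all genes were at -0.04, and 12 of the 20 members lay above the median of all genes, against 6 of 20 with the 75th percentile.

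**Figure D3:**
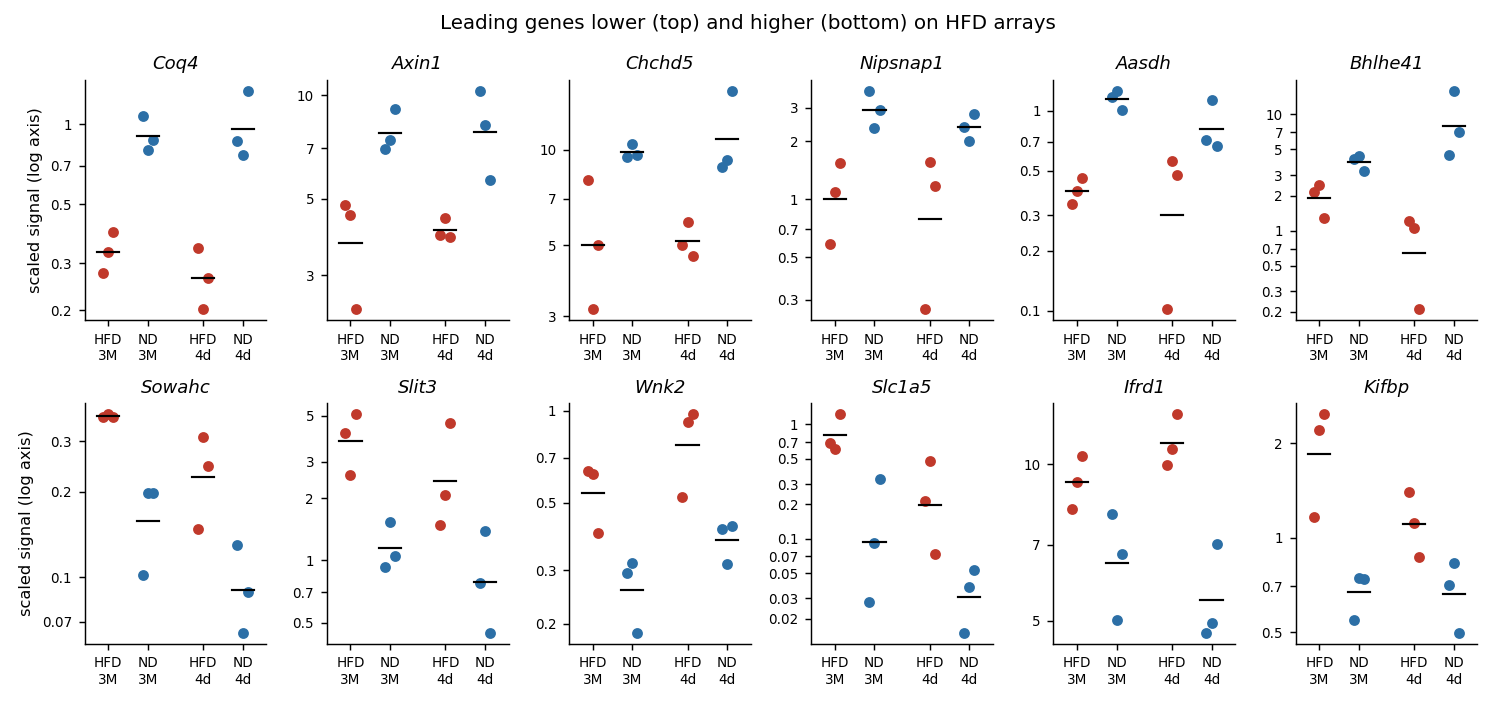
Scaled signal (log axis) of 12 leading genes on each array, with HFD in red and ND in blue at 3 months and at 4 days; lines are geometric means of 3 arrays. The genes were chosen for this order: in every panel the 3 HFD points lie all below (top row) or all above (bottom row) the 3 ND points of the same duration.

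Axin1 and Dact3, both inhibitors of Wnt signalling, were also among the leading lower genes. Axin1, the scaffold of the complex that degrades beta-catenin, had 4.804, 4.481 and 2.397 on HFD 3-month arrays against 6.953, 7.417 and 9.112 on ND 3-month arrays. At 4 days Axin1 had 3.922, 4.4 and 3.869 on HFD arrays against 10.296, 8.174 and 5.684 on ND arrays. All HFD arrays lay below all ND arrays, with an average difference of -1.0 ± 0.22 (95% interval -1.48 to -0.53, limma adjusted p 0.779), while the gene's other tested probe differed by 0.12. Dact3, an antagonist that binds Dishevelled, had 0.586, 0.283 and 0.193 on HFD 3-month arrays against 0.639, 1.178 and 1.737 on ND 3-month arrays. At 4 days Dact3 had 0.354, 0.222 and 0.577 on HFD arrays against 0.63, 0.912 and 0.847 on ND arrays, an average of -1.46 ± 0.36 (limma adjusted p 0.829). Dact3 was lower in HFD in anagen too, by -1.02 and -0.82, whereas Axin1 was at -0.84 at 3 months and 1.34 at 4 days. The list of Wnt genes, which holds ligands, receptors and targets, had 23 members tested, 0 called, 17 below 0 and 6 above, with a median of -0.21 (-0.12 at 3 months, -0.17 at 4 days). Its median lay between -0.33 and -0.07 under the 4 other scalings, where the median of all genes was -0.15 and 0.01. In that list the target gene Axin2 differed by -1.12 ± 0.51 (-0.74 without HFD 3-month replicate 3, and 0.29 on a second probe), the receptor Fzd3 by -0.56 ± 0.18, and the agonist Rspo1 by 1.86 ± 0.82, with overlap of the diets at 3 months.

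Other lower genes with signal well above background on all 12 arrays were Hoxb3, a homeobox transcription factor (-0.69 ± 0.17, and -1.60 on a second probe), the atypical phosphatase Dusp28 (-1.90 ± 0.46) and the Golgi GTPase Arfrp1 (-0.88 ± 0.22, but 1.15 on a second probe). Hoxb3 had 1.692, 1.672 and 1.34 on HFD 3-month arrays against 2.474, 3.299 and 2.478 on ND 3-month arrays, and 2.342, 1.55 and 1.89 on HFD 4-day arrays against 3.084, 2.817 and 2.56 on ND 4-day arrays. Its HFD arrays lay below every ND array. Ada, the enzyme that deaminates adenosine, had the largest average size of a lower gene at -3.64 ± 0.86. Its ND 4-day arrays alone spanned 0.513, 10.008 and 2.804, against 0.038, 0.039 and 0.384 on HFD 4-day arrays, and a second probe of Ada differed by 0.51. Among genes outside the naming rule, picked after their values were seen, were 3 of the lysosome: the cholesterol exporter Npc1 (-0.96 ± 0.32), the mTORC1 anchor Lamtor1 (-0.49 ± 0.15) and the proton pump accessory subunit Atp6ap2 (-0.34 ± 0.14).

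A further 4 leading lower genes, Olfr309, Olfr813, Slc17a9 and Tnfsf11, were dim. Olfr309 and Olfr813, receptors of the olfactory epithelium, differed by -1.20 ± 0.17 and -1.11 ± 0.20. Olfr309 had 0.01, 0.008 and 0.007 on HFD 3-month arrays against 0.021, 0.022 and 0.017 on ND 3-month arrays, and 0.016, 0.016 and 0.014 on HFD 4-day arrays against 0.026, 0.04 and 0.036 on ND 4-day arrays. It was well above background on 0 of the 6 HFD arrays and on 4 of the 6 ND arrays, and Olfr813 was at least 1.22-fold lower in HFD. Of 515 olfactory receptor genes tested, 213 passed the filter through ND arrays only, 6 were lower and 0 higher at both durations without overlap (0.357% and 0.179% over all genes). Their median difference was -0.12, against -0.11 for the bin of genes with the lowest signal, which holds 407 of them. Slc17a9, a vesicular nucleotide transporter (-1.67 ± 0.34), and Tnfsf11, the cytokine RANKL (-1.18 ± 0.26), were likewise not well above background on any HFD array, and Slc17a9 was at least 1.44-fold lower in HFD. At 3 months Tnfsf11 was not well above background on any ND array either, so its order there is one of background values. With normexp background correction Olfr309 differed by -0.07 and Tnfsf11 by -0.17.

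The genes higher in HFD at both durations were led by Sowahc, an ankyrin repeat protein, and Slit3, a secreted guidance ligand of Robo receptors. Sowahc had 0.365, 0.373 and 0.364 on HFD 3-month arrays against 0.102, 0.197 and 0.197 on ND 3-month arrays, and 0.148, 0.31 and 0.246 on HFD 4-day arrays against 0.13, 0.064 and 0.089 on ND 4-day arrays. The average was 1.26 ± 0.26 (95% interval 0.70 to 1.83, limma adjusted p 0.779), with 1.22 at 3 months and 1.31 at 4 days. In anagen Sowahc was lower in HFD, by -0.29 and -1.99. Slit3 had 4.104, 2.587 and 5.075 on HFD 3-month arrays against 0.926, 1.539 and 1.051 on ND 3-month arrays. At 4 days Slit3 had 1.485, 2.079 and 4.626 on HFD arrays against 0.775, 1.392 and 0.446 on ND arrays, an average of 1.68 ± 0.35 (limma adjusted p 0.779). The diets did not overlap, but the lowest HFD 4-day array was close to the highest ND 4-day array.

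Slc1a5, the glutamine carrier ASCT2, had 0.695, 0.611 and 1.226 on HFD 3-month arrays against 0.028, 0.091 and 0.33 on ND 3-month arrays. At 4 days Slc1a5 had 0.215, 0.478 and 0.073 on HFD arrays against 0.015, 0.038 and 0.053 on ND arrays. Its average of 2.87 ± 0.63 (95% interval 1.49 to 4.26, limma adjusted p 0.779) was the second largest of the leading higher genes. Dcst2, a membrane protein of sperm, had the largest at 4.18 ± 0.88, but its other tested probes differed by -0.68 and -0.49. Dcst2 passed the filter through HFD arrays only. It was well above background on 3 of the 6 ND arrays, so its size rests partly on background values. Slc66a1, which exports cationic amino acids from lysosomes, differed by 0.82 ± 0.20, by 0.65 on a second probe, and by 0.84 and 1.05 in anagen. Wnk2, a kinase of ion transport, differed by 1.04 ± 0.23 and by 0.96 on a second probe. Its HFD values of 0.636, 0.619 and 0.396 at 3 months stood against 0.293, 0.317 and 0.187 in ND, and 0.522, 0.916 and 0.973 at 4 days against 0.41, 0.315 and 0.419 in ND.

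Ifrd1, a transcriptional coregulator induced by growth factors and stress, had 8.213, 9.236 and 10.365 on HFD 3-month arrays against 8.006, 5.022 and 6.708 on ND 3-month arrays. At 4 days Ifrd1 had 9.962, 10.713 and 12.461 on HFD arrays against 4.738, 4.938 and 7.005 on ND arrays, an average of 0.76 ± 0.19, with 1.00 on a second probe (limma adjusted p 0.829). Every HFD array lay above every ND array. Rhbdl2, a rhomboid protease of the plasma membrane, differed by 1.49 ± 0.33, the kinesin-binding protein Kifbp by 1.1 ± 0.26, Anks1b by 1.12 ± 0.25 and the membrane-anchored protein Fndc3a by 1.04 ± 0.31. The other tested probes were closer to 0, at 0.39 for Kifbp, 0.09 and 0.25 for Anks1b and 0.06 for Fndc3a. The ubiquitin ligase Rnf125 (1.94 ± 0.50), the deubiquitinase Zup1 (2.38 ± 0.69, and 0.68 on a second probe) and Focad (1.80 ± 0.51) had larger differences and wider spreads. Ercc6, a repair factor of transcribed genes, passed the filter through HFD arrays only and was well above background on 0 of the 6 arrays at 4 days, so its order there is one of background values. Its difference was 2.11 ± 0.49, and 0.79 with normexp. From the 33 genes but outside the naming rule, and seen before it was picked, the receptor tyrosine kinase Epha2 differed by 0.80 ± 0.27 and in anagen by 0.44 and 0.88.

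Where a gene had other tested probes, these ran the same way as the chosen probe for 12 of 16 probes of the higher genes and 16 of 23 of the lower genes, against 57% over all genes. The single anagen arrays were not used to choose these genes. In them, 18 and 14 of the 33 higher genes were higher in HFD at 3 months and at 4 days, against 64.4% and 43.9% of all genes, and 19 and 35 of the 66 lower genes were lower, against 35.1% and 55% of all genes. Leading genes were mixed there. Ada was at -1.73 at 3 months and 2.30 at 4 days, Bhlhe41 at -0.42 and 0.80, and Chchd5 at 1.00 and -0.37. Nipsnap1 was at 0.18 and 0.43, Slit3 at -0.89 and 3.18, and Slc1a5 at -2.10 and 2.33.

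Neither of the genes past the threshold at 4 days, both higher in HFD there, lay above ND without overlap at 3 months. Ppp1r3d, a glycogen-targeting subunit of protein phosphatase 1, had 0.251, 0.237 and 0.196 on HFD 4-day arrays against 0.004, 0.004 and 0.004 on ND 4-day arrays, where it was not well above background on any array. It was at least 13.7-fold higher in HFD at 4 days (limma adjusted p 0.00107). At 3 months Ppp1r3d had 0.079, 0.052 and 0.056 on HFD arrays against 0.517, 0.462 and 0.159 on ND arrays, the opposite order. The difference between durations passed for this gene alone (0.00541% called): it was -8.28 (limma adjusted p 0.00102), a size that depends on values below background. Ccnj, a cyclin with a little known role in mammals, had 2.04, 0.874 and 1.719 on HFD 4-day arrays against 0.025, 0.018 and 0.026 on ND 4-day arrays (6.0 ± 0.55, limma adjusted p 0.00646; 2 of the 3 ND arrays well above background). At 3 months its diets overlapped, with 0.472, 1.527 and 1.482 in HFD and 0.399, 0.986 and 1.018 in ND. On the single anagen arrays at 4 days both genes were lower in HFD. Ppp1r3d had 0.031 in HFD and 0.075 in ND, and Ccnj had 0.019 in HFD and 0.158 in ND. On the 3-month anagen arrays Ppp1r3d had 0.007 in HFD and 0.866 in ND, and Ccnj had 0.359 and 0.339. With normexp or with the aged arrays in the fit, 0 genes passed at 4 days. With genes well above background on all 12 arrays only, 0 passed as well, but that filter leaves out these probes of both genes.

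When every tested probe was fitted on its own, 1 of 42504 probes (0.00235%) passed in the average of both durations, 4 passed at 3 months (0.00941%) and 2 at 4 days (0.00471%). The 1 probe that passed in the average, A_52_P90257, is designed to a transcript with no single gene symbol in the reference used here. It had 0.337, 0.193 and 0.547 on HFD 3-month arrays against 0.005, 0.005 and 0.005 on ND 3-month arrays, and 0.042, 0.1 and 0.13 on HFD 4-day arrays against 0.004, 0.004 and 0.005 on ND 4-day arrays. It was well above background on 5 of the 6 HFD arrays and on 0 of the 6 ND arrays, so it was at least 9.2-fold higher in HFD (limma adjusted p 0.00382 over all probes). On the anagen arrays it had 0.379 in HFD and 0.225 in ND at 3 months, and 0.037 in HFD and 0.007 in ND at 4 days.

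Clock genes held the one leading lower gene that also stood in a list. Bhlhe41, a repressor of the circadian clock, had 2.168, 2.485 and 1.278 on HFD 3-month arrays against 4.166, 4.42 and 3.249 on ND 3-month arrays. At 4 days Bhlhe41 had 1.211, 1.045 and 0.211 on HFD arrays against 4.437, 16.028 and 7.072 on ND arrays. Every HFD array lay below every ND array, with an average of -2.33 ± 0.60 (limma adjusted p 0.829), -1.04 at 3 months and -3.63 at 4 days, while its second probe differed by -0.16. Ciart, Nr1d1, Nr1d2 and Dbp, all activated by the clock, were below 0 at both durations, but the diets overlapped except for Nr1d2 at 4 days. Of the 19 clock genes tested, 8 were below 0 at both durations and 2 were above 0 at both. Values of Per1, Per3, Cry1, Cry2, Tef and Hlf are not given here. Ciart, Nr1d2 and Arntl are named here after their values were seen. Ciart, a repressor of the clock, differed by -1.73 ± 1.00, the haem receptors Nr1d1 and Nr1d2 by -1.0 ± 0.51 and -0.46 ± 0.26, and the output factor Dbp by -0.55 ± 0.27. Without HFD 4-day replicate 2, Nr1d1 was at -0.52 and Dbp at -0.32. Arntl, the activator BMAL1, differed by 2.06 ± 1.47 with -0.75 at 3 months and 4.87 at 4 days, and the period gene Per2 by 0.01 ± 0.28. Of the 19 clock genes tested 0 were called, 11 were below 0 and 8 above, and the median was -0.06, between -0.20 and 0.03 with 1 array left out. The sources used here do not give the time of day of sampling.

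The clock activator binds the E-box CACGTG, which reads the same on both strands, so the promoters of the 2 clock genes with the lowest differences are shown, with each E-box in capitals. They are the 250 bases before the gene start (RefSeq, GRCm38.p6), 5′ to 3′ on the strand of the gene.
Bhlhe41: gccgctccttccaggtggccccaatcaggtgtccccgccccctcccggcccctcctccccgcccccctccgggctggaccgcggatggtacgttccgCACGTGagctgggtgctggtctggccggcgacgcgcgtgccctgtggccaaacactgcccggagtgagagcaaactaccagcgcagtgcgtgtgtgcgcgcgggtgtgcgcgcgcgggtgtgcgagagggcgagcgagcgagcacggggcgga
Ciart: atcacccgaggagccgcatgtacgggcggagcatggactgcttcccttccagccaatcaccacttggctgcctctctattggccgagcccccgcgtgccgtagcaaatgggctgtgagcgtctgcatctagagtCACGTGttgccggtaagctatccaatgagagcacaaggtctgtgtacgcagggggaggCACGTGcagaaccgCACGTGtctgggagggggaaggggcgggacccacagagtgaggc
That of Bhlhe41 (chr6:145865421-145865670, minus strand) holds 1 E-box and that of Ciart (chr3:95882229-95882478, minus strand) holds 3. Of the 16 clock genes with a promoter in the table, 5 had at least 1 E-box in this window of any of their promoters, while counted per promoter the share was 6.02% of all 32851 promoters and 7.25% of the 18141 promoters of tested genes, and Dbp, Nr1d1 and Nr1d2 had none. Besides Bhlhe41 and Ciart, the clock genes with an E-box were Per1, Cry1 and Tef. A match is a description of these letters and not a binding site.

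**Figure D4:**
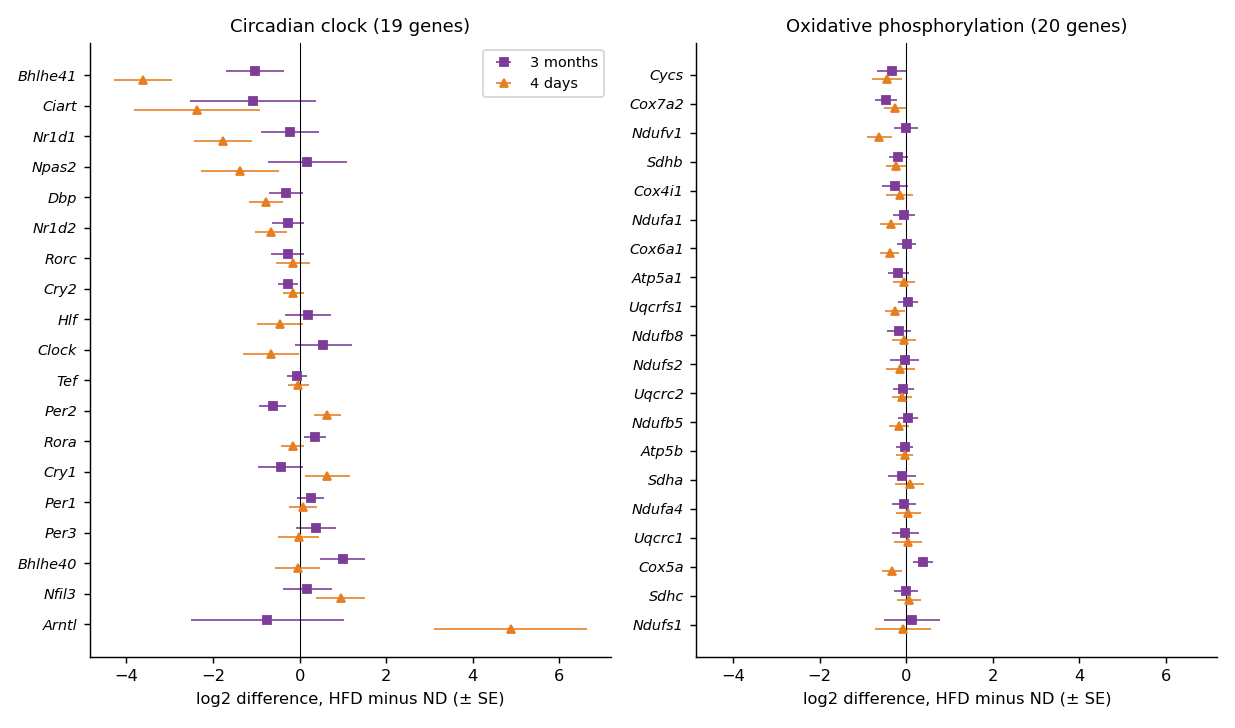
Log2 difference of HFD minus ND (± SE) at 3 months (squares) and 4 days (triangles) for the 19 clock genes and the 20 oxidative phosphorylation genes tested, ordered by the average. Bhlhe41 lies below 0 at both durations (-1.04 and -3.63), Arntl has the widest error, and the averages of the respiratory genes lie between -0.39 and 0.03.

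No list held a gene past the threshold in the average, and the lists are described by their counts and medians, to be read against -0.04 and 44.9% above 0 over all genes. The epidermal differentiation list, genes of the cornified layers, had 21 of 29 members above 0 and a median of 0.34, but it was 0.45 at 3 months and -0.04 at 4 days. With 1 array left out it lay between 0.11 and 0.60, and it was 0.20 without ND 4-day replicate 2. Sprr1a, a cornified envelope protein, had 4.531, 7.724 and 7.987 on HFD 3-month arrays against 2.997, 3.087 and 3.565 on ND 3-month arrays, and 5.768, 5.752 and 0.687 on HFD 4-day arrays against 2.241, 1.003 and 1.105 on ND 4-day arrays. It averaged 1.05 ± 0.49 in difference and overlapped at 4 days through HFD replicate 3. Sprr1b (2.47 ± 1.06) was highest on 1 HFD array per duration, at 2.082 and 5.272, where no ND array passed 0.114, and its diets overlapped at both durations. The transcription factor Ovol1, which promotes epidermal differentiation, differed by 1.84 ± 0.80, and the late markers Ivl by 1.12 ± 0.79 and Krt10 by 0.02 ± 0.27. Without ND 4-day replicate 2, Ovol1 was at 1.04 and Ivl at 0.61.

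Of the hedgehog genes, whose pathway starts follicle growth, 9 of 14 were above 0 with a median of 0.27. It had opposite signs at the durations, -0.11 at 3 months and 0.34 at 4 days, and was -0.09 without ND 4-day replicate 2. Disp1, which releases the ligand, differed by 1.72 ± 0.53 and by 1.54 on a second probe, the target genes Gli1 by 0.40 ± 0.36 and Ptch1 by 0.33 ± 0.44 (-0.95 on a second probe), and the signal transducer Smo by 0.02 ± 0.33. Disp1 had 1.064, 5.468 and 5.659 on HFD 3-month arrays against 0.85, 1.36 and 1.134 on ND 3-month arrays, and 1.964, 2.82 and 1.279 on HFD 4-day arrays against 0.291, 1.567 and 0.303 on ND 4-day arrays, so that 1 HFD array overlapped with ND at each duration. Interleukin-1 family genes had 14 of 20 members above 0 and a median of 0.18 (0.23 at 3 months, 0.10 at 4 days), which lay between 0.02 and 0.28 with 1 array left out. The co-receptor Il1rap differed by 1.87 ± 0.88, the activating protease Casp1 by 1.49 ± 0.78 (0.88 without ND 4-day replicate 3), the cytokine Il1b by 0.33 ± 0.25 (0.50 without HFD 3-month replicate 3) and the receptor Il1r1 by 0.80 ± 0.62 (0.47 without HFD 4-day replicate 1). Immediate early genes, which report recent stimulation or handling of cells, had 13 of 19 above 0 and a median of 0.21 (0.42 without HFD 3-month replicate 3), with Fos at 1.58 ± 0.85 (0.88 without ND 4-day replicate 2). NF-kB genes had 9 of 20 above 0 and a median of -0.08 (0.11 without HFD 3-month replicate 3), with the regulator Nfkbiz at 1.63 ± 0.53 and the adaptor Traf2 at -0.73 ± 0.28 (-0.12 on a second probe).

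Antioxidant genes, many of them targets of NRF2, had 15 of 21 members below 0 and a median of -0.14. Under the 4 other scalings it lay between -0.26 and -0.09, where the median of all genes was -0.15 and 0.01. Prdx6, a peroxidase that reduces oxidised phospholipids, had 7.145, 10.622 and 11.106 on HFD 3-month arrays against 13.729, 14.4 and 18.144 on ND 3-month arrays, and 8.974, 8.155 and 11.194 on HFD 4-day arrays against 15.553, 13.545 and 10.896 on ND 4-day arrays. It differed by -0.60 ± 0.18 (limma adjusted p 0.938) and by -0.13 on a second probe, and 1 HFD array lay above the lowest ND array at 4 days. The quinone reductase Nqo1 differed by -0.70 ± 0.34 and the haem oxygenase Hmox1 by -0.99 ± 0.42.

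Lipid droplet and uptake genes had a median of 0.01 (12 of 20 above 0), fatty acid synthesis genes 0.03 (9 of 17) and PPAR and fat oxidation genes 0.10 (14 of 22). The fatty acid transporter Cd36 was not well above background on all 3 arrays of any of the 4 groups and was not tested. The PPAR targets Pdk4 and Angptl4 differed by -0.98 ± 1.05 (-0.26 without ND 4-day replicate 3) and -0.18 ± 0.27, the desaturase Scd1 by 0.05 ± 0.26 and the droplet coat protein Plin2 by -0.31 ± 0.26. Cholesterol synthesis genes had 12 of 20 below 0 and a median of -0.13, but 0.15 at 3 months and -0.39 at 4 days: Fdft1, squalene synthase, differed by -1.28 ± 0.44, and by -0.17 on a second probe.

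Of the bulge stem cell markers 0 were called. The median of the 22 genes was -0.08, with 16 below 0. Under the 4 other scalings it lay between -0.19 and -0.03, where the median of all genes was -0.15 and 0.01. With quantile normalization both were at -0.04, and 11 of the 22 lay above the median of all genes. Cd34, the surface marker of the bulge, had 32.227, 30.976 and 39.61 on HFD 3-month arrays against 51.689, 44.985 and 47.338 on ND 3-month arrays, and 43.546, 41.21 and 45.765 on HFD 4-day arrays against 41.542, 55.857 and 49.187 on ND 4-day arrays. Its average was -0.33 ± 0.15 (limma adjusted p 0.938), without overlap at 3 months and with overlap at 4 days. Lgr5, a stem cell receptor that enhances Wnt signalling, differed by -0.48 ± 0.25, Krt15 by -0.09 ± 0.14, Lhx2 by -0.19 ± 0.14, Sox9 by -0.02 ± 0.21 and the hemidesmosome collagen Col17a1 by 0.04 ± 0.15. Bmp6, a quiescence signal, differed by 1.18 ± 0.50 and its receptor Bmpr1a by 0.63 ± 0.18. The list of BMP and TGF-beta genes was evenly split, with 13 of 26 members above 0 and 13 below. Its median was -0.01 (-0.12 at 3 months, 0.10 at 4 days). Bmpr1a had 7.73, 5.333 and 8.351 on HFD 3-month arrays against 4.373, 3.729 and 5.466 on ND 3-month arrays, and 5.078, 6.715 and 4.703 on HFD 4-day arrays against 4.191, 3.301 and 3.201 on ND 4-day arrays, so that 1 pair of arrays overlapped at 3 months. A second probe of Bmpr1a differed by -0.16.

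Markers of other cell types showed no member past the threshold in any of 13 lists. Schwann cell markers had the lowest median of all lists, -0.60, with 8 of 8 genes below 0, but 4 of the 8 lay in the bin of genes with the lowest signal and the median was -0.23 without HFD 3-month replicate 3. Their summed scaled signal ranged from 13 to 15.1 on HFD 3-month arrays against 10.6 to 23.2 on ND 3-month arrays, and from 7.74 to 16.1 on HFD 4-day arrays against 11.3 to 16.5 on ND 4-day arrays. T cell markers had 8 of 10 above 0 (median 0.26), with sums of 2.72 to 9.7 on HFD 3-month arrays against 3.18 to 8.34 on ND 3-month arrays and 6 to 8.48 on HFD 4-day arrays against 6.45 to 9.2 on ND 4-day arrays. Macrophage and Langerhans cell markers had 2 of 13 above 0 (median -0.07), and sebocyte markers 6 of 10 (median 0.17), among them the wax ester enzyme Awat1 at 1.26 ± 0.40. Endothelial markers, with 6 of 11 tested, were at sums of 0.247 to 0.326 on HFD 3-month arrays against 0.292 to 0.354 on ND 3-month arrays, and of 0.436 to 0.945 on HFD 4-day arrays against 0.367 to 0.469 on ND 4-day arrays. The part of other cells in the differences above was not tested.

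**Figure D5:**
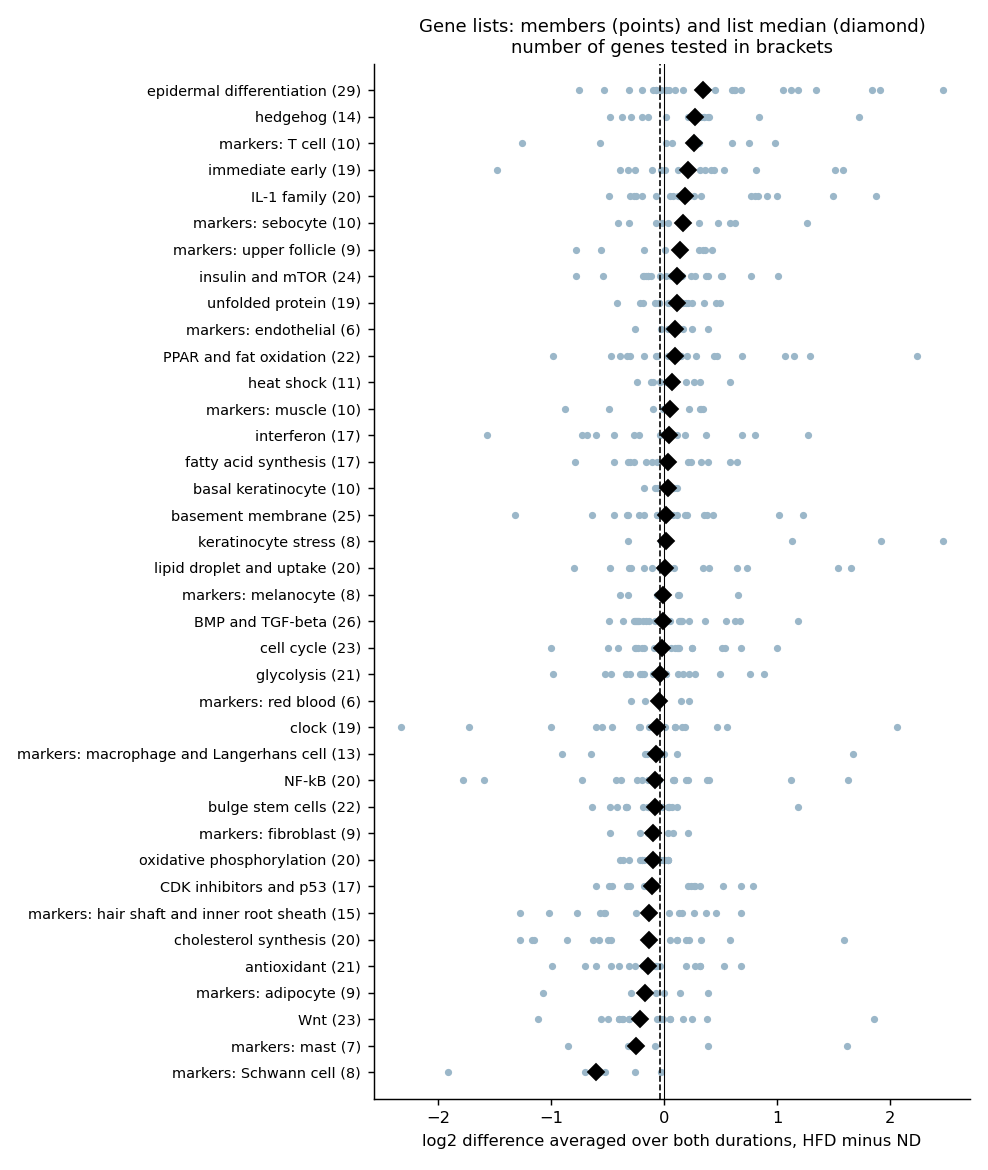
Log2 difference of HFD minus ND averaged over both durations for the members of 38 gene lists (points) and the list medians (diamonds), ordered by median; the dashed line is the median of all genes, -0.04. Epidermal differentiation lies at the top (0.34 with all 12 arrays) and Schwann cell markers at the bottom (-0.60), and no member of any list passed an adjusted p of 0.05.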

How the data were processed

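RNA was measured on 1-colour Agilent arrays, and the 12 HFD and ND telogen arrays were compared by the groups in their labels. Per the file headers, signals were extracted with Agilent Feature Extraction 10.7.1.1, whose processed signal is background-subtracted. The deposited values are intensity on a linear scale with 3 decimals. Matched against the scanner files, each value is the processed signal divided by the array's 75th percentile. These intensities were taken to log2. Probes entered when some group (of 4) had them well above background on each of its 3 arrays (42504 of 56605 probes). Of all probes 32989 matched exactly 1 gene symbol, and the other 23616, with no match or more than 1, were left without a symbol. For a gene with several tested probes, the brightest on average over the 12 arrays was used. No sample column was left unmapped (0 columns), and no spot was saturated.

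limma 3.58.1 (lmFit, eBayes, R 4.3.3, data.table package 1.17.8) fitted diet with duration as a factor, and a 4-group model gave each duration and their difference. P-values were adjusted with Benjamini-Hochberg over all genes. Detection shares were compared by an exact permutation test of diet within duration. "Well above background" is the scanner software's flag. Where all arrays of a group lacked it, a fold is a bound ("at least"), computed against the lowest signal among probes well above background or the probe's own, whichever was higher. The fits were tested on simulated data.

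Named genes were the 10 per direction with the smallest p among genes whose diets did not overlap at either duration and ran the same way. Added were 5 more per direction well above background on all 12 arrays, up to 3 members per list, fixed key genes and genes past the threshold. Members, lists and rules were chosen with earlier results of these data known. Replicate numbers did not pair the arrays: deviations of same-numbered arrays correlated at -0.0021 to 0.059. Alternatives changed the background correction, scaling, filter, probes per gene, fit, threshold, rule and arrays; leaving out 2 arrays together was chosen after seeing the data.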

Additional observations from a re-analysis of the deposited data

Results flagged for a closer look

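Each diet over both durations gave a group of 6 arrays for the leading genes, the genes past the threshold and the share of spots detected. Among these 66 groups, 6 held 1 array far from the others by Dixon's test at 95%. Chance flags about 1 in 20 groups. Axin1 was at 2.4 on HFD 3-month replicate 3, where the other HFD arrays lay between 3.87 and 4.8. Dusp28 was at 0.323 on HFD 4-day replicate 3, against 1.39 to 3.32 on the other HFD arrays, and Bhlhe41 at 0.211 on the same array, against 1.04 to 2.48. Aasdh was at 0.102 on HFD 4-day replicate 1, where the others lay between 0.343 and 0.563. Among ND arrays, Chchd5 was at 15.3 on 4-day replicate 3, against 8.82 to 10.4, and Zup1 at 0.022 on 4-day replicate 2, against 0.31 to 1.05.

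Ppp1r3d differed between the durations: the diet difference at 3 months minus that at 4 days was -8.28 on the log2 scale, tested as an interaction (limma adjusted p 0.00102). It was not well above background on the ND 4-day arrays.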

How the results depend on the processing

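In the average, 0 genes passed in every setting run on genes, and 1 probe passed when each tested probe was fitted on its own. The smallest adjusted p was 0.0509 without HFD 3-month replicate 3 (Mcph1). Fitting probes on their own gave 4 calls at 3 months and 2 in the difference between durations. At 4 days, and in the difference between durations, 0 passed with normexp, with the filter on all 12 arrays and with all 15 telogen arrays. The filter on all 12 arrays leaves out the called probes of Ppp1r3d and Ccnj, so it could not test them. Leaving out 1 array gave 0 to 2 calls at 3 months, 1 to 4 at 4 days and 1 to 5 in the difference between durations, which had 3 calls without both arrays that stood apart.

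The counts of genes without overlap moved most. Higher in HFD at both durations were 54 with normexp, 19 with median scaling, 286 with no filter, 84 probes on their own, 16 by an unadjusted p at both durations, 15 with a difference of at least 1, 204 without both arrays apart, and 54 to 98 with 1 array left out. Lower at both were 43 with normexp, 172 with median scaling, 42 with the percentile over detected probes, 32 with the filter on all 12 arrays, 161 probes, 33 by unadjusted p, 14 with at least 1, 235 without both, and 109 to 201 with 1 array left out. Opposite were 145 probes, 40 by unadjusted p, 28 with at least 1, 305 without both, and 108 to 172 with 1 array left out. With fewer arrays a group, non-overlap is met more often by construction; the cause of the other moves was not tested. Of the 33 higher and 66 lower genes, 30 and 31 stayed without overlap with normexp, 15 and 48 with median scaling.

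With the replicate number as a block, 0 genes passed and the smallest adjusted p was 0.605. Over 802 settings of the 30 leading genes, 1 changed sign: Arfrp1 was at 0.13 as the mean over its probes. These genes were chosen for no overlap, so leaving out arrays or changing the fit could not turn their sign. Only a change of the signals or of the probe could, so the count is no measure of robustness. Signal over background limits the dim genes: under normexp the lower genes Olfr309, Olfr813, Slc17a9 and Tnfsf11 were at -0.07, -0.24, -0.47 and -0.17. Diet cannot be told apart from the row of the slide.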

Other observations

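All 4 probes past the threshold at 3 months, A_52_P90257 among them, had no single gene symbol, as had 23616 of all 56605 probes. A_52_P836062 was well above background on 0 of 3 HFD arrays, with 0.009, 0.005 and 0.006, and on 3 of 3 ND arrays, with 1.679, 0.444 and 1.247 (limma adjusted p 0.00299 over all probes; 0.00941% called at 3 months). At 4 days it was well above background on 0 of 6 arrays. A_55_P2715600 had 0.186, 0.127 and 0.069 on HFD 3-month arrays against 0.004, 0.005 and 0.008 on ND 3-month arrays (limma adjusted p 0.0159), and A_55_P2716949 had 0.657, 1.559 and 0.64 in HFD against 0.019, 0.023 and 0.025 in ND (limma adjusted p 0.0165). The single 3-month anagen arrays did not repeat these differences. There A_52_P836062 had 0.006 in HFD and 0.008 in ND, A_55_P2715600 had 0.007 and 0.039, and A_55_P2716949 had 0.011 and 0.011.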
